A study of Homo sapiens with 10 samples.

Results

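The arrays labelled luteolin were compared with the arrays labelled gefitinib in PC-3 cells, a human prostate cancer line that grows without androgen. The members were chosen by sample title alone, which gave 4 of the 10 single-color Agilent arrays, 2 per label. According to the labels, cells of the luteolin group received 60 µM luteolin and cells of the gefitinib group 60 µM gefitinib, and RNA was taken 24 h later. The other groups, of 2 arrays each, were untreated cells at 0 h, cells given DMSO for 24 h, and cells given both drugs for 24 h. The names of the scanner files carry other treatments. The arrays labelled luteolin come from files marked "Gef", and the arrays labelled gefitinib come from files marked "L+G". The arrays labelled with both drugs come from files marked "Lu+". The treatments in the labels are therefore in doubt, and each direction below belongs to the arrays labelled luteolin or gefitinib and not to a drug. The labels call the 2 arrays of a group biological replicates without saying whether they came from separate cultures, so the p-values measure the spread between these arrays, which may be technical.

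Gefitinib blocks the ATP site of the epidermal growth factor receptor (EGFR), whose signal runs through the RAS-ERK cascade and through PI3K and AKT. Falling ERK activity lowers transcripts of its own feedback inhibitors, and falling AKT activity lets FOXO transcription factors enter the nucleus and raise their targets. Luteolin is a plant flavone that binds several kinases. Cells short of amino acids or with unfolded protein in the endoplasmic reticulum make more of the transcription factors ATF4 and CHOP, and cells leaving the division cycle lose the transcripts for DNA synthesis that E2F factors drive.

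The 4 arrays differed in brightness. The signal at the 75th percentile reached 1173 and 1041 on the luteolin-labelled arrays and 651 and 628 on the gefitinib-labelled arrays, and 68.9%, 63.7%, 63.4% and 63.4% of probes were well above background in that order. Replicate 1 of both labels lay on the same slide, and the other arrays lay on different slides. All 6 markers examined for this line, the epithelial KRT8, KRT18, KRT19, EPCAM and CDH1 and the mesenchymal VIM, were well above background on all 10 arrays. KLK3 and TMPRSS2, known to be low in this line, were also well above background on all 10. Of 15 markers of leukocytes, fibroblasts, muscle and endothelium, 6 were well above background on no array (PTPRC, DCN, PDGFRB, DES and VWF among them) and 4 on all 10 (CD3E, CD14, CD68 and PECAM1). Their summed signal, as a multiple of the 75th percentile, was 1.68 and 1.37 on the luteolin-labelled arrays and 1.73 and 1.68 on the gefitinib-labelled arrays.

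The labels differed widely in their transcripts. Of 19717 genes tested, 3574 (18.1%) were higher in the luteolin-labelled arrays and 3640 (18.5%) were higher in the gefitinib-labelled arrays, at an adjusted p under 0.05 in limma and a difference of at least 2-fold, and 12503 were not called. Without the minimum fold, 11909 genes passed the adjusted p. Values are log2 signals scaled by each array's 75th percentile, and a difference is the mean of the luteolin-labelled arrays minus that of the gefitinib-labelled arrays. The median size of the difference over all genes was 0.791, against 0.193 between the 2 luteolin-labelled arrays and 0.258 between the 2 gefitinib-labelled arrays. Across genes, which are not independent replicates, arrays of one label correlated at r = 0.991 and 0.986 and arrays of different labels at 0.918 to 0.925. Large differences lay more often on the luteolin side, with 1082 genes at least 4-fold higher in the luteolin-labelled arrays against 610 in the gefitinib-labelled arrays, but 777 of the 3574 genes higher in the luteolin-labelled arrays were not well above background on either gefitinib-labelled array, against 321 of 3640 on the other side.

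Both gefitinib-labelled arrays were above both luteolin-labelled arrays for 8887 genes (45.1%), and the reverse held for 7089 (36.0%). The median difference over all genes was -0.15, and it depended on the scaling, with -0.30 after normexp background correction, -0.23 when arrays were centred on probes well above background on all 10 arrays and -0.01 after quantile normalization. The split of calls moved with it, since the luteolin-higher share of the called genes was 49.5% here, 40.1% with normexp, 43.9% with that centring and 56.4% with quantile normalization. It also moved with the level of the gene. Of the 6572 brightest genes 10.5% were higher in the luteolin-labelled arrays and 21.5% in the gefitinib-labelled arrays, against 23.1% and 15.0% of the 6572 genes of middle brightness. The labels did not overlap in 3573 of the 3574 and 3639 of the 3640 called genes. Their direction within the slide that both labels share therefore followed from the calling and is no separate test of the slide. Between the single pair of arrays on that slide, 3170 and 2952 of the called genes differed at least 2-fold.

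**Figure D1:**
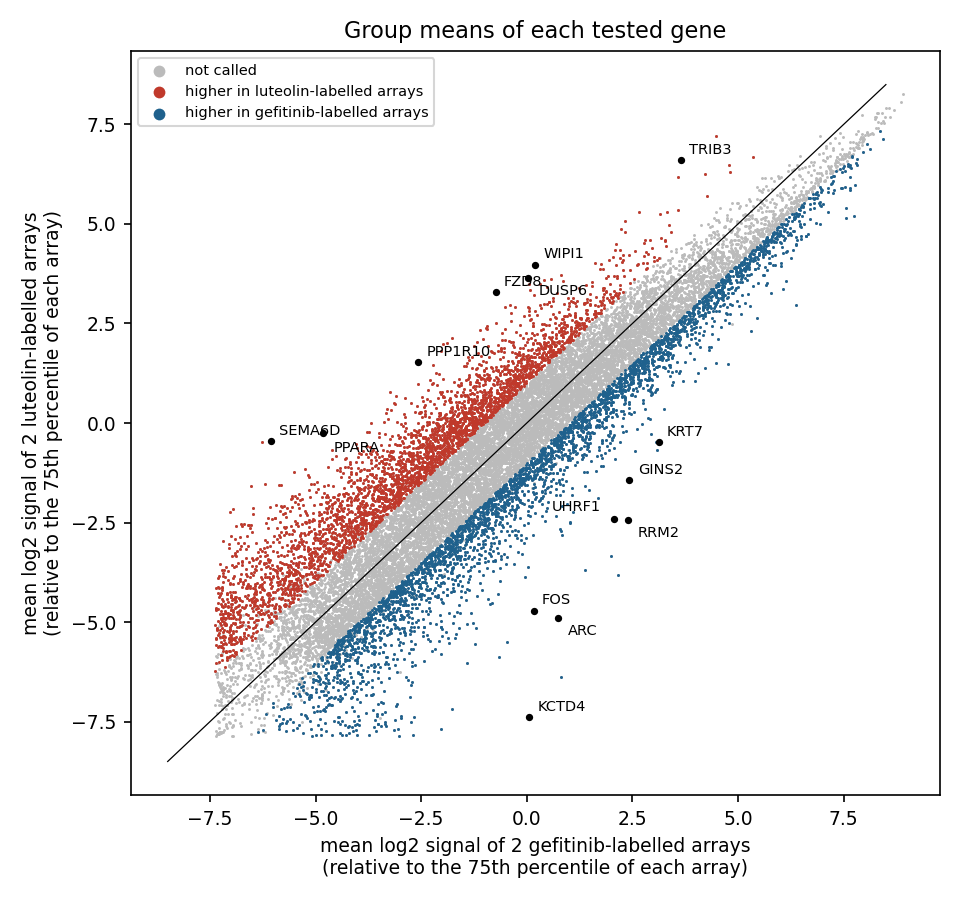
Mean log2 signal of each tested gene in the 2 luteolin-labelled arrays (y axis) against the 2 gefitinib-labelled arrays (x axis), both relative to the 75th percentile of each array, with called genes colored by the label in which they were higher (3574 and 3640 genes) and the line of equality in black. Named genes far above the line include SEMA6D, PPARA and WIPI1, and far below it KCTD4, ARC, FOS and RRM2.

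The DMSO arrays give a second reference, measured the same way and used here as a description without a test. The 2 comparisons with DMSO share those arrays. The median distance of a gene from DMSO was 0.401 in the luteolin-labelled arrays and 0.697 in the gefitinib-labelled arrays. With its sign, the median over all genes stood at 0.10 and 0.05 in the luteolin-labelled arrays and at 0.25 and 0.18 in the gefitinib-labelled arrays. Group means lay above DMSO for 11064 and 11535 of the 19717 genes. List medians relative to DMSO below are to be read beside these values. Among the 3574 genes higher in the luteolin-labelled arrays, the DMSO mean lay between the labels for 2418, above both for 902 and below both for 254. Among the 3640 higher in the gefitinib-labelled arrays, it lay between the labels for 2371, below both for 1022 and above both for 247.

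Genes of DNA synthesis formed the most one-sided of the lists examined. Of 41 DNA replication genes tested, 35 (85.4%) were higher in the gefitinib-labelled arrays and 0 were higher in the luteolin-labelled arrays, with a median difference of -2.1. The shares over all genes, 18.5% and 18.1%, are the reference for this list and for every list below. RRM2, the small subunit of the ribonucleotide reductase that makes deoxynucleotides, measured -2.26 and -2.61 in the luteolin-labelled arrays and 2.37 and 2.40 in the gefitinib-labelled arrays, against 2.20 and 2.30 with DMSO. The gefitinib-labelled arrays thus lay beside DMSO, and the luteolin-labelled arrays lay 28.4-fold below them (difference -4.83 ± 0.24 SE, adjusted p = 2.64e-05). UHRF1, which carries DNA methylation through replication, measured -2.09 and -2.74 against 1.94 and 2.20, and DMSO gave 2.08 and 1.84. GINS2, part of the helicase that opens the replication fork, measured -1.47 and -1.38 against 2.36 and 2.5, with DMSO at 2.33 and 2.44. The same order therefore held in all 3 genes, with no overlap between the labels. PCNA, the sliding clamp of the polymerases, and FEN1, the flap nuclease, chosen after their values were seen, were exceptions and did not pass the test (differences -0.21 ± 0.21 and 0.06 ± 0.17). Both lay under DMSO in both groups, PCNA at 1.87 and 1.73 against 1.94 and 2.09 with a DMSO mean of 3.23. In bulk RNA, fewer cells in S phase and less of these transcripts per cell cannot be told apart.

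Some promoters of these genes hold a sequence that the comparison did not use. An E2F motif, TTTCCCGC or TTTGGCGC on either strand, stood within the 250 bases before the RefSeq start in 12 of 35 DNA replication promoters (34.3%), in 3.02% of the promoters of all tested genes that could be matched (10783 of 19717) and in 1.96% of all 27305 promoters in the table. Among called genes the share was 4.22% for those higher in the gefitinib-labelled arrays and 2.52% for those higher in the luteolin-labelled arrays. The promoters of UHRF1 and GINS2 are shown because both genes are among the largest differences and both carry the motif, in capitals, 14 and 31 bases before the start. They lie at chr19:4909251-4909500 on the plus strand and chr16:85688955-85689204 on the minus strand of GRCh38.p14, from RefSeq, written 5′ to 3′ up to the base before the start.
UHRF1: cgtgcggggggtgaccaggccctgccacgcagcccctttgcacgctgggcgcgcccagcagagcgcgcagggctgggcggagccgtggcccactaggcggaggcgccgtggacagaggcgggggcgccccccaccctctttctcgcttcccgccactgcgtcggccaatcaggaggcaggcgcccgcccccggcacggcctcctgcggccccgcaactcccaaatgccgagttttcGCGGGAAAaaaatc
GINS2: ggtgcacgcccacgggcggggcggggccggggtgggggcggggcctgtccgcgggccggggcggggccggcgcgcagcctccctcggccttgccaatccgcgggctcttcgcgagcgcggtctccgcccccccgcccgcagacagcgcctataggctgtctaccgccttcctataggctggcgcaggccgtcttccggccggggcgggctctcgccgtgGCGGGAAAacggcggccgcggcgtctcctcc

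The genes that carry cells through mitosis were also lower in the luteolin-labelled arrays, but the gefitinib-labelled arrays lay below DMSO as well. Of 40 mitosis genes, 25 (62.5%) were higher in the gefitinib-labelled arrays and 1 was higher in the luteolin-labelled arrays, with a median difference of -1.2. The median member stood -1.82 and -2.51 from DMSO in the luteolin-labelled arrays and -1.29 and -0.83 from it in the gefitinib-labelled arrays. BIRC5, the survivin subunit of the chromosomal passenger complex, measured 3.56 and 3.18 against 6.11 and 6.02 with a DMSO mean of 5.48. AURKB, the kinase of the same complex, measured -3.12 and -3.87 against -1.13 and -0.83. Both kept a gap between the labels, of -2.69 ± 0.21 and -2.52 ± 0.27. Without luteolin replicate 2, 16 members were called on the gefitinib side in place of 25. The 1 member on the other side was CDC25B, the phosphatase that activates mitotic cyclin-dependent kinase, at 1.29 ± 0.16.

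A second motif accompanied the mitosis genes. The cell cycle homology region, searched as TTTGAA on either strand, was in 18 of 34 mitosis promoters (52.9%) and in 8.70% of the promoters of all tested genes, and CCAAT was in 79.4% against 35.4%. Among called genes the directions were alike. TTTGAA was in 10.1% of those higher in the gefitinib-labelled arrays and 9.21% of those higher in the luteolin-labelled arrays, and CCAAT in 36.8% and 37.5%. CDK1, the kinase that starts mitosis, was chosen after its values were seen because its promoter holds the motif, and it measured 1.27 and 0.52 against 2.72 and 3.15, with a DMSO mean of 3.71 (difference -2.04 ± 0.30). Its promoter is shown with that motif in capitals, from chr10:60778081-60778330 on the plus strand of GRCh38.p14, 161 bases before the start.
CDK1: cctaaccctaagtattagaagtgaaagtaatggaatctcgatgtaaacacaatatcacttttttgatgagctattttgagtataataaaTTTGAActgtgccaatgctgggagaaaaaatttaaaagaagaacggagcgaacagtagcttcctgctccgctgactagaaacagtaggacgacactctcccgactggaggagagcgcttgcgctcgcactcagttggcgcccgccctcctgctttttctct

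DNA repair genes followed the replication genes. Of 25, 18 (72%) were higher in the gefitinib-labelled arrays and 2 (8%) in the luteolin-labelled arrays, against 18.5% and 18.1% of all genes. The median difference was -1.7. BRIP1, a helicase of the Fanconi pathway, measured -4.44 and -5.02 against -1.72 and -1.58, and RAD54L, a motor of homologous recombination, measured -1.05 and -1.11 against 1.70 and 1.90. The luteolin-labelled arrays were low in both genes. FANCM, which moves DNA branch points, and PALB2, the partner of BRCA2, went the other way, by 1.31 ± 0.23 and 1.21 ± 0.17. The call of FANCM was lost with the median over its probes (0.59) and that of PALB2 with normexp (0.36, adjusted p = 0.0758).

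The regulators of entry into S phase were mixed, with a median difference of -0.34. Of 24, 9 (37.5%) were higher in the gefitinib-labelled arrays and 4 (16.7%) in the luteolin-labelled arrays, against 18.5% and 18.1% of all genes. E2F1, the transcription factor that switches on S phase genes, measured -1.24 and -0.58 against 2.14 and 2.03, with a DMSO mean of 0.94. E2F8, a repressor of the family, was well above background on 1 of the 2 luteolin-labelled arrays and both gefitinib-labelled arrays, at -5.02 and -7.12 against -3.29 and -2.96. CDKN2B, the p15 inhibitor of cyclin D kinases, stood on the luteolin side at 3.05 and 3.74 against 1.71 and 0.76, above the DMSO mean of -0.46 in both groups. CDC25A, a phosphatase that activates cyclin-dependent kinase, differed by 2.05 ± 0.32, or 0.61 with normexp, under the minimum fold, and was well above background on 1 of the 2 gefitinib-labelled arrays.
In the nuclear lamina list, of 12 genes, 3 (25%) were higher in the luteolin-labelled arrays and 2 (16.7%) in the gefitinib-labelled arrays. The shares over all genes were 18.1% and 18.5%. LEMD3, an inner nuclear membrane protein, measured 0.43 and 0.10 against -2.85 and -3.80, while LMNB2, the gene of lamin B2, measured -0.91 and -0.82 against 1.03 and 1.10. LMNB1, the gene of lamin B1, was lower than the DMSO mean of 0.72 in every array, at -2.32 and -2.96 against -4.01 and -4.10 (difference 1.41 ± 0.36, 0.52 with normexp, and 1.09 with adjusted p = 0.0663 without luteolin replicate 1).

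**Figure D2:**
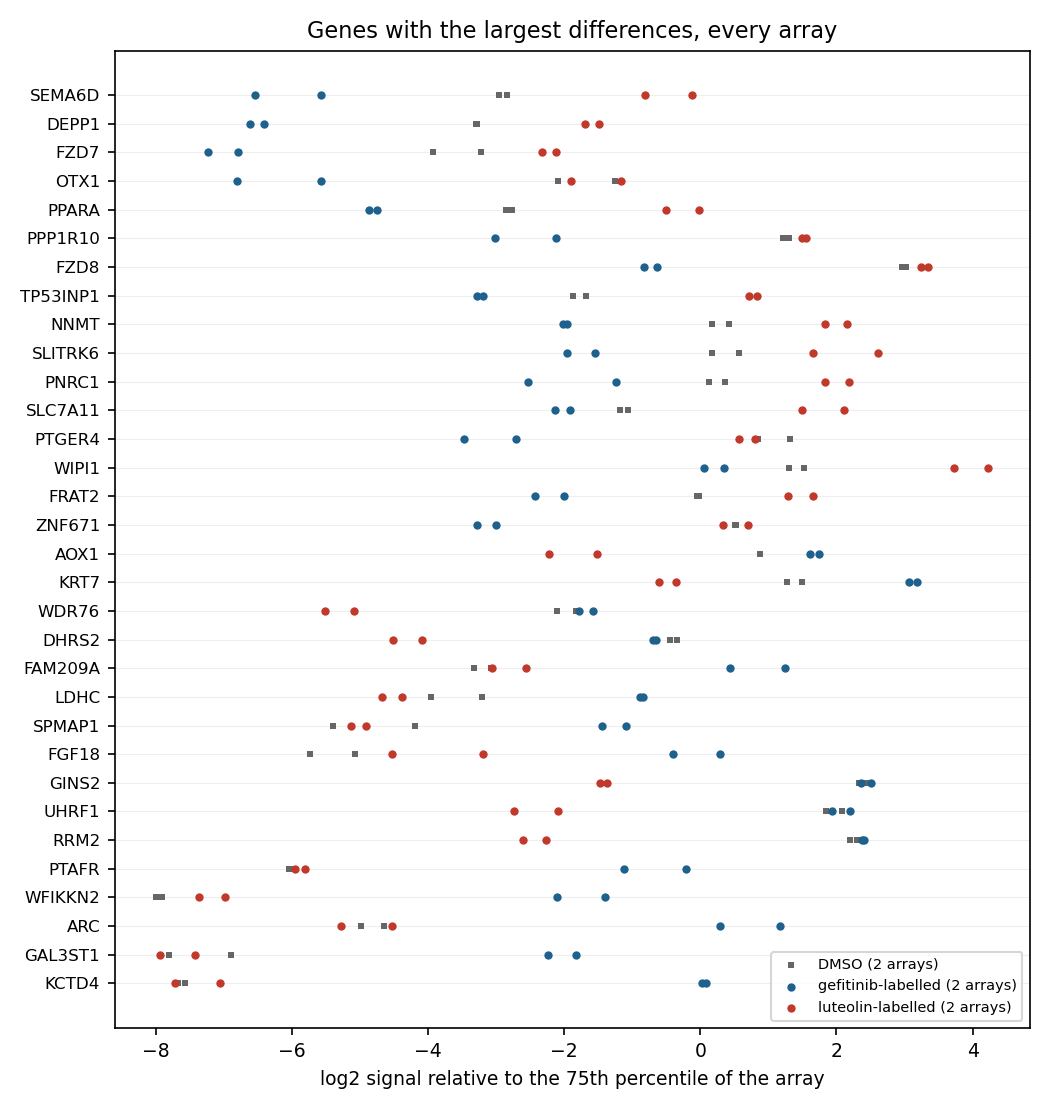
Log2 signal scaled by each array's 75th percentile (x axis) for the genes with the largest differences by the naming rule (y axis), one point per array for luteolin-labelled (red), gefitinib-labelled (blue) and DMSO (grey) arrays. In RRM2, UHRF1 and GINS2 the DMSO arrays lie with the gefitinib-labelled arrays, and in ARC, KCTD4 and GAL3ST1 with the luteolin-labelled arrays.

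Targets of FOXO factors and feedback genes of PI3K were the most one-sided of the lists on the luteolin side. Of 20 tested, 17 (85.0%) were higher in the luteolin-labelled arrays and 0 were higher in the gefitinib-labelled arrays, with a median difference of 1.9. Against DMSO the median member stood at 0.57 and 0.87 in the luteolin-labelled arrays and at -0.93 and -1.10 in the gefitinib-labelled arrays, so the labels lay on opposite sides of DMSO. SESN1, a sestrin that restrains the growth kinase mTORC1, measured -2.61 and -2.37 in the luteolin-labelled arrays and was not well above background in the gefitinib-labelled arrays, which puts it at least 5.92-fold higher in the former. BCL6, a transcriptional repressor, measured 2.60 and 3.00 against 0.31 and -0.22, with a DMSO mean of 1.47. FOXO1, a member of the factor family itself that was chosen after its values were seen, measured 0.95 and 1.40 against -1.21 and -1.08, with a DMSO mean of 0.07 (difference 2.32 ± 0.27, adjusted p = 0.000274). For TRIB1, one of the 17, 1 of 2 probes pointed the other way. DEPP1, a small protein raised by FOXO in starved cells and outside the list, was at least 11-fold higher in the luteolin-labelled arrays, at -1.49 and -1.69 with DMSO at -3.29 on both arrays.

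Genes that report the ERK cascade went the same way by their number. Of 20 ERK feedback and output genes, 7 (35.0%) were higher in the luteolin-labelled arrays and 0 were higher in the gefitinib-labelled arrays, with a median difference of 0.61. DUSP6, the phosphatase that switches ERK off, measured 3.66 and 3.62 in the luteolin-labelled arrays, beside a DMSO mean of 3.81, and 0.25 and -0.21 in the gefitinib-labelled arrays (difference 3.62 ± 0.26, 12.3-fold, adjusted p = 5.73e-05). SPRY1, the Sprouty inhibitor of receptor kinase signaling, measured 0.46 and -0.07 against -1.47 and -2.40, with a DMSO mean of 0.16. In both genes the luteolin-labelled arrays lay near DMSO and the gefitinib-labelled arrays below it. Without gefitinib replicate 2, 3 members of the list were called on the gefitinib side in place of 0. EGFR itself did not pass the test, at -0.39 and 0.11 against 0.13 and 0.19 (difference -0.30 ± 0.22, adjusted p = 0.262), although both luteolin-labelled values lay below both gefitinib-labelled ones.

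Among the 17 genes of the EGF receptor family and its ligands, 3 (17.6%) were higher in the luteolin-labelled arrays, near the 18.1% of all genes, and 1 (5.88%) was higher in the gefitinib-labelled arrays. ERBB4, the neuregulin receptor, was at least 6.39-fold higher in the luteolin-labelled arrays, at -2.55 and -2.20, and LRIG3, a transmembrane protein of a family that binds these receptors, was at least 4.80-fold higher, at -2.95 and -2.62. Neither was well above background in the gefitinib-labelled arrays. BTC, the ligand betacellulin, went the other way by -1.04 ± 0.21, which fell under the minimum fold without luteolin replicate 2 (-0.86) or without gefitinib replicate 2 (-0.96). LRIG3 did so with normexp (0.74).

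The immediate early genes, which growth factors and stress switch on within minutes, split. Of 22, 10 (45.5%) were higher in the gefitinib-labelled arrays and 5 (22.7%) in the luteolin-labelled arrays, against 18.5% and 18.1% of all genes. The median difference was -0.88. ARC, first known as a transcript of active synapses, measured -5.28 and -4.53 in the luteolin-labelled arrays, -4.64 and -4.99 with DMSO, and 1.17 and 0.29 in the gefitinib-labelled arrays. Here it was the gefitinib-labelled arrays that stood apart, by 49.7-fold (difference -5.63 ± 0.34, adjusted p = 3.47e-05). FOS, the AP-1 subunit, measured -4.41 and -5.01 against 0.84 and -0.52 with a DMSO mean of -3.87, and it was well above background on 1 of the 2 luteolin-labelled arrays. EGR1, a zinc finger factor downstream of ERK that was chosen after its values were seen, was at least 6.79-fold higher in the gefitinib-labelled arrays, at -2.11 and -3.43 with a DMSO mean of -3.81. The 2 largest on the luteolin side were KLF4, a Krüppel-like factor, with a difference of 2.22 ± 0.37, and IER2, a nuclear protein, with 1.69 ± 0.31. Relative to DMSO the ERK feedback list and the immediate early list thus had medians of opposite sign in the gefitinib-labelled arrays, -0.50 and -0.63 for the former and 1.85 and 1.26 for the latter.

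**Figure D3:**
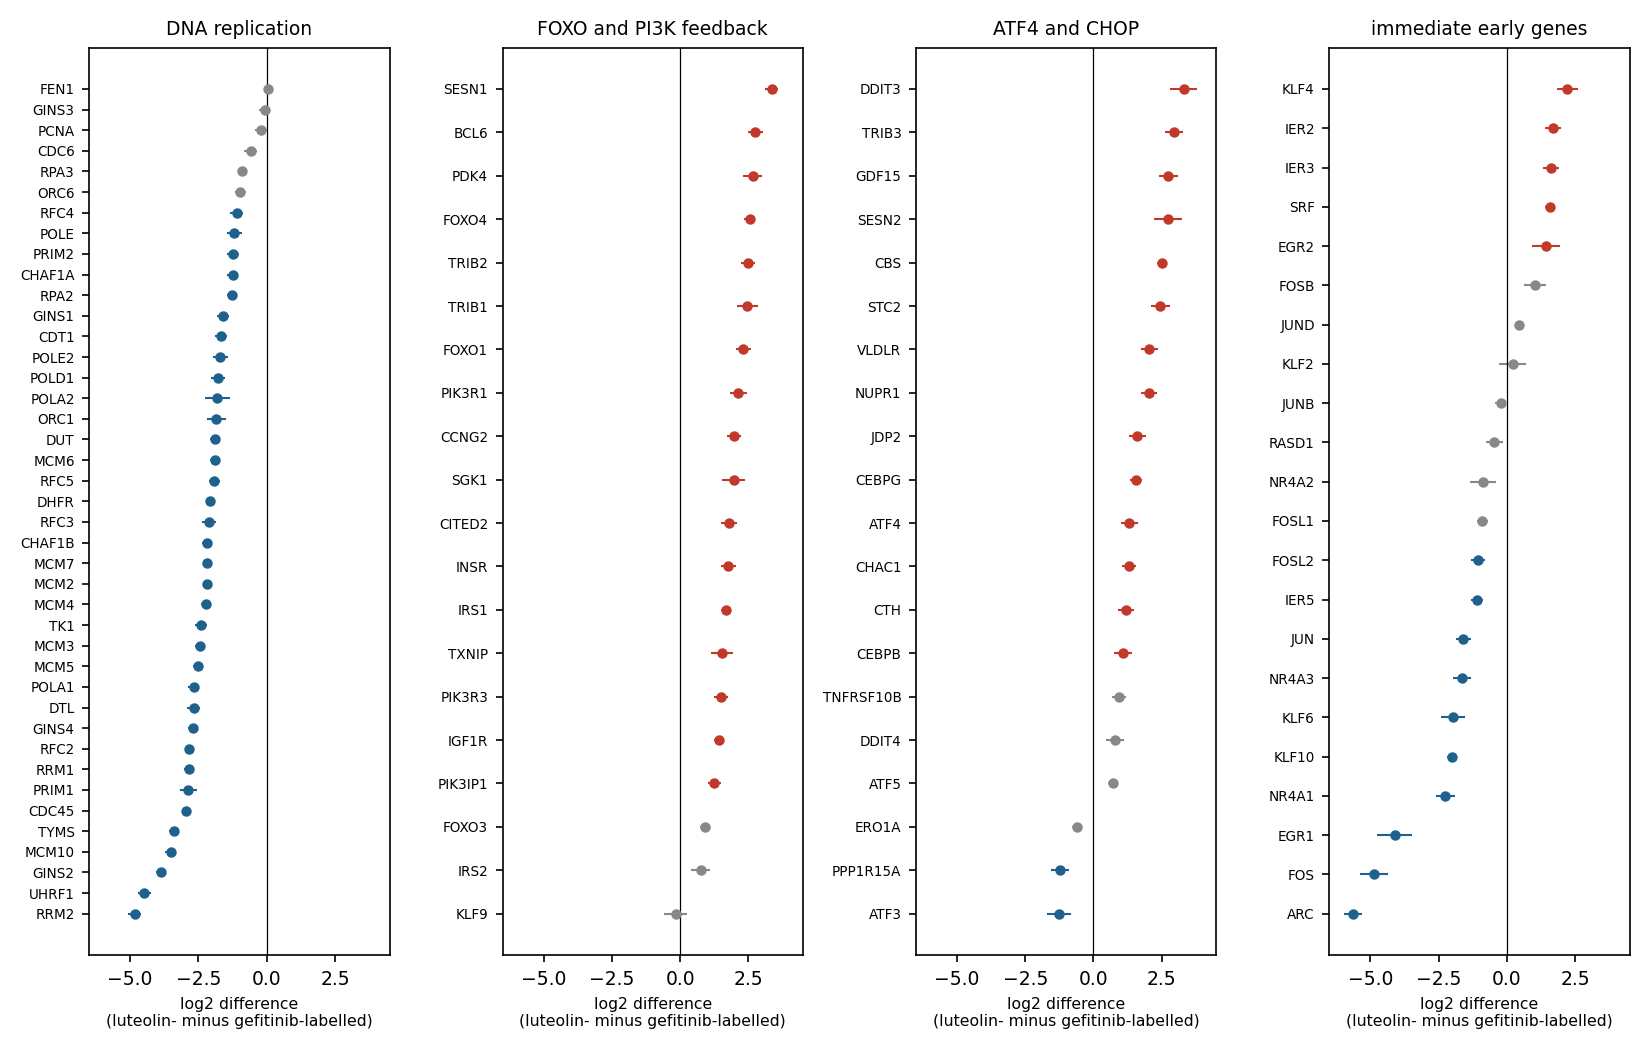
Log2 difference of luteolin-labelled minus gefitinib-labelled arrays (x axis) for each tested member of 4 gene lists (y axis), with bars of 1 standard error from limma and colors for genes called higher in the luteolin-labelled (red) or gefitinib-labelled arrays (blue) or not called (grey). DNA replication has 35 of 41 members on the gefitinib side, FOXO and PI3K feedback has 17 of 20 on the luteolin side, and the immediate early genes run from ARC at -5.63 to KLF4 at 2.22.

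The ATF4 and CHOP stress response was higher in the luteolin-labelled arrays in 14 of 20 genes (70.0%) and higher in the gefitinib-labelled arrays in 2, with a median difference of 1.4. DDIT3, the gene of CHOP, measured 1.67 and 3.05 against -0.34 and -1.54, with a DMSO mean of -0.50. TRIB3, the pseudokinase that CHOP induces, measured 6.17 and 7.04 against 3.80 and 3.51, with a DMSO mean of 3.50. In both genes the luteolin-labelled arrays lay above DMSO, and 9.83-fold and 7.73-fold over the gefitinib-labelled arrays. The gefitinib-labelled arrays lay near DMSO, except that DDIT3 was below it in replicate 2. ATF4 itself, chosen after its values were seen, measured 6.51 and 6.84 against 5.71 and 5.02 (difference 1.31 ± 0.31, adjusted p = 0.00675, and 0.97 without gefitinib replicate 2, under the minimum fold). The 2 genes on the other side were ATF3, a stress factor, at 0.95 and 2.14 against 3.34 and 2.28, and PPP1R15A, the GADD34 subunit that reopens translation, at -0.05 and 0.61 against 1.96 and 1.05. Both of these were above the DMSO means of -0.34 and -0.83 on every array of either label. Neither call held without luteolin replicate 1, at -0.66 and -0.89 (adjusted p = 0.208 and 0.0924), or without gefitinib replicate 1, at -0.73 and -0.77 (adjusted p = 0.197 and 0.0845).

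Genes that import or make amino acids joined them. Of 21 serine and amino acid supply genes, 10 (47.6%) were higher in the luteolin-labelled arrays and 2 (9.52%) in the gefitinib-labelled arrays. The shares over all genes were 18.1% and 18.5%, and the median difference of the list was 0.85. SLC7A11, the cystine importer, measured 1.49 and 2.11 against -1.91 and -2.14, with DMSO at -1.18 and -1.06 (14.2-fold, adjusted p = 3.46e-05). SLC1A5, a glutamine transporter, measured 0.38 and 0.42 against -1.68 and -1.64. MTHFD1 and SHMT1, folate enzymes of the cytosol, were higher in the gefitinib-labelled arrays, by 4.61-fold and 2.51-fold. These transporters and folate enzymes were named as the largest differences in each direction. They do not show how the rest of the list divides by function.

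The motif of ATF4 and C/EBP factors, TGATGCAA or TGATGAAA on either strand, stood in 3 of 34 promoters of the stress response and amino acid lists together (8.82%) in 0.751% of the promoters of all tested genes and in 1.72% of all promoters in the table. Among called genes it was in 0.669% of promoters of those higher in the luteolin-labelled arrays, the side of these lists, and in 1.28% of those higher in the gefitinib-labelled arrays. A pair of these promoters is shown because their genes are called members of the lists, and both were chosen after their values were seen. ASNS, asparagine synthetase, measured 5.18 and 5.54 against 3.61 and 3.56 (difference 1.78 ± 0.20), and CHAC1, which breaks down glutathione, 2.81 and 3.37 against 1.63 and 1.96 (difference 1.29 ± 0.26). The sequences, with the motif in capitals, come from chr7:97872409-97872658 on the minus strand for ASNS, where it lies 68 bases before the start, and chr15:40953221-40953470 on the plus strand for CHAC1, where the reverse complement lies 209 bases before it, both on GRCh38.p14.
ASNS: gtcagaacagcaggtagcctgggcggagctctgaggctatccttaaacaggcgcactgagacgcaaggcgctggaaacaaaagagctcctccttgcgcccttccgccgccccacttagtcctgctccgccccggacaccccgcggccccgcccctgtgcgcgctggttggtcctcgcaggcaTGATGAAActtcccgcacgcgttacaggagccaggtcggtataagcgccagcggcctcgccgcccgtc
CHAC1: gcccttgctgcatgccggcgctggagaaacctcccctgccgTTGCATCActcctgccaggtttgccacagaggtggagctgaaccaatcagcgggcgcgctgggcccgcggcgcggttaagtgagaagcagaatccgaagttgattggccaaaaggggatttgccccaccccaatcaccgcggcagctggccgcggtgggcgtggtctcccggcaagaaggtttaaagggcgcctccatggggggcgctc

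Chaperones of the endoplasmic reticulum were above DMSO in both groups, with list medians of 0.99 and 0.96 in the luteolin-labelled arrays and 0.90 and 0.64 in the gefitinib-labelled arrays. Between the labels, 7 of 20 (35%) were higher in the luteolin-labelled arrays and 0 in the gefitinib-labelled arrays, against 18.1% and 18.5% of all genes. The median difference was 0.29. DNAJB9, a cochaperone of the lumen, measured 2.96 and 3.86 against 1.11 and -0.17, and HERPUD1, a scaffold for degrading misfolded proteins, 5.92 and 6.43 against 4.27 and 2.90. Of 19 cytosolic heat shock genes, 6 (31.6%) were higher in the gefitinib-labelled arrays and 3 (15.8%) in the luteolin-labelled arrays, against 18.5% and 18.1% of all genes. The 6 were led by HSP90AA1, the inducible HSP90, at 4.84 and 4.53 against 6.63 and 6.60, and by CRYAB, a small heat shock protein, at -1.59 ± 0.39. Of the 3, DNAJB4, a cochaperone of HSP70, differed by 2.06 ± 0.25, and HSPA1L, an HSP70 of testis, was at least 2.58-fold higher. With normexp both calls were lost, at 0.91 for DNAJB4 and 0.29 for HSPA1L (adjusted p = 0.114). The heat shock list's median of -0.47 turned to 0.11 at its highest under another scaling. Its promoters held GAANNTTC, a core of the heat shock element, in 7 of 17 (41.2%) against 4.11% of all tested genes, 4.84% of those higher in the luteolin-labelled arrays and 3.31% of those higher in the gefitinib-labelled arrays.

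Aminoacyl-tRNA synthetases, which ATF4 also raises in part, did not move as a block. Of 20, 4 (20%) were higher in the gefitinib-labelled arrays and 2 (10%) in the luteolin-labelled arrays, against 18.5% and 18.1% of all genes. GARS1 and AARS1, which charge glycine and alanine tRNAs, were 2.84-fold and 2.34-fold higher in the luteolin-labelled arrays, and FARSB, for phenylalanine, was 3.72-fold higher in the gefitinib-labelled arrays. Of 25 targets of the oxidant sensor NRF2, 6 (24%) were higher in the luteolin-labelled arrays and 1 (4%) in the gefitinib-labelled arrays, against the same 18.1% and 18.5%. The median of 0.03 ran from -0.05 to 0.24 over the scalings. GCLC, the enzyme that limits glutathione synthesis, measured 1.19 and 1.65 against -1.27 and -0.42, and AKR1C1, an aldo-keto reductase, -0.76 and -0.77 against -2.76 and -2.61. TXN, thioredoxin, was the 1 on the other side, at -1.27 ± 0.26, where leaving out 1 array of either label gave 2 or 3 members. With quantile normalization TXN stood at -0.45 (adjusted p = 0.0534) and 0 members were on that side. Metallothioneins, the metal-binding proteins, had 1 of 10 called in each direction, MT1F on the luteolin side and MT3 on the gefitinib side, neither of them called without luteolin replicate 2 or gefitinib replicate 2, and a median of -0.14 that reached 0.63 under another scaling.

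Luteolin belongs to the flavones, a class with ligands of the aryl hydrocarbon receptor. Of 10 genes of that receptor and of xenobiotic enzymes, 5 (50%) were higher in the gefitinib-labelled arrays and 2 (20%) in the luteolin-labelled arrays. The shares over all genes were 18.5% and 18.1%. CYP1B1, a classical target, measured -3.90 and -2.92 against -1.63 and -1.33, with a DMSO mean of -1.24, so that the luteolin-labelled arrays lay below both. ALDH3A1, another, measured -4.09 and -3.20 against -1.82 and -1.67. The receptor AHR and its partner ARNT were the 2 on the luteolin side, 2.42-fold and 2.65-fold higher, but with normexp ARNT differed by 0.74, under the minimum fold. AOX1, aldehyde oxidase, which metabolizes drugs and lies outside the list, measured -1.53 and -2.23 against 1.74 and 1.62.

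Enzymes of cholesterol synthesis were above DMSO in both groups, with list medians of 1.01 and 0.79 in the luteolin-labelled arrays and 0.81 and 0.73 in the gefitinib-labelled arrays. Between the labels 7 of 25 (28%) were higher in the luteolin-labelled arrays and 0 in the gefitinib-labelled arrays, against 18.1% and 18.5% of all genes. Yet the median of -0.01 changed sign with the scaling, from -0.09 to 0.30. SQLE, squalene epoxidase, measured 4.02 and 4.16 against 2.25 and 2.29, with a DMSO mean of 2.53 (3.52-fold). Of 18 genes of fatty acid synthesis and sterol export, 1 (5.56%) was called in each direction, under the shares of all genes. These were the sterol exporter ABCA1 at 1.44 ± 0.35 and the acetyl-CoA carboxylase ACACA at -1.39 ± 0.21, or -0.84 with the median over its probes. The call of ABCA1 was lost without luteolin replicate 2 (adjusted p = 0.0625) or gefitinib replicate 2 (0.0509).

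**Figure D4:**
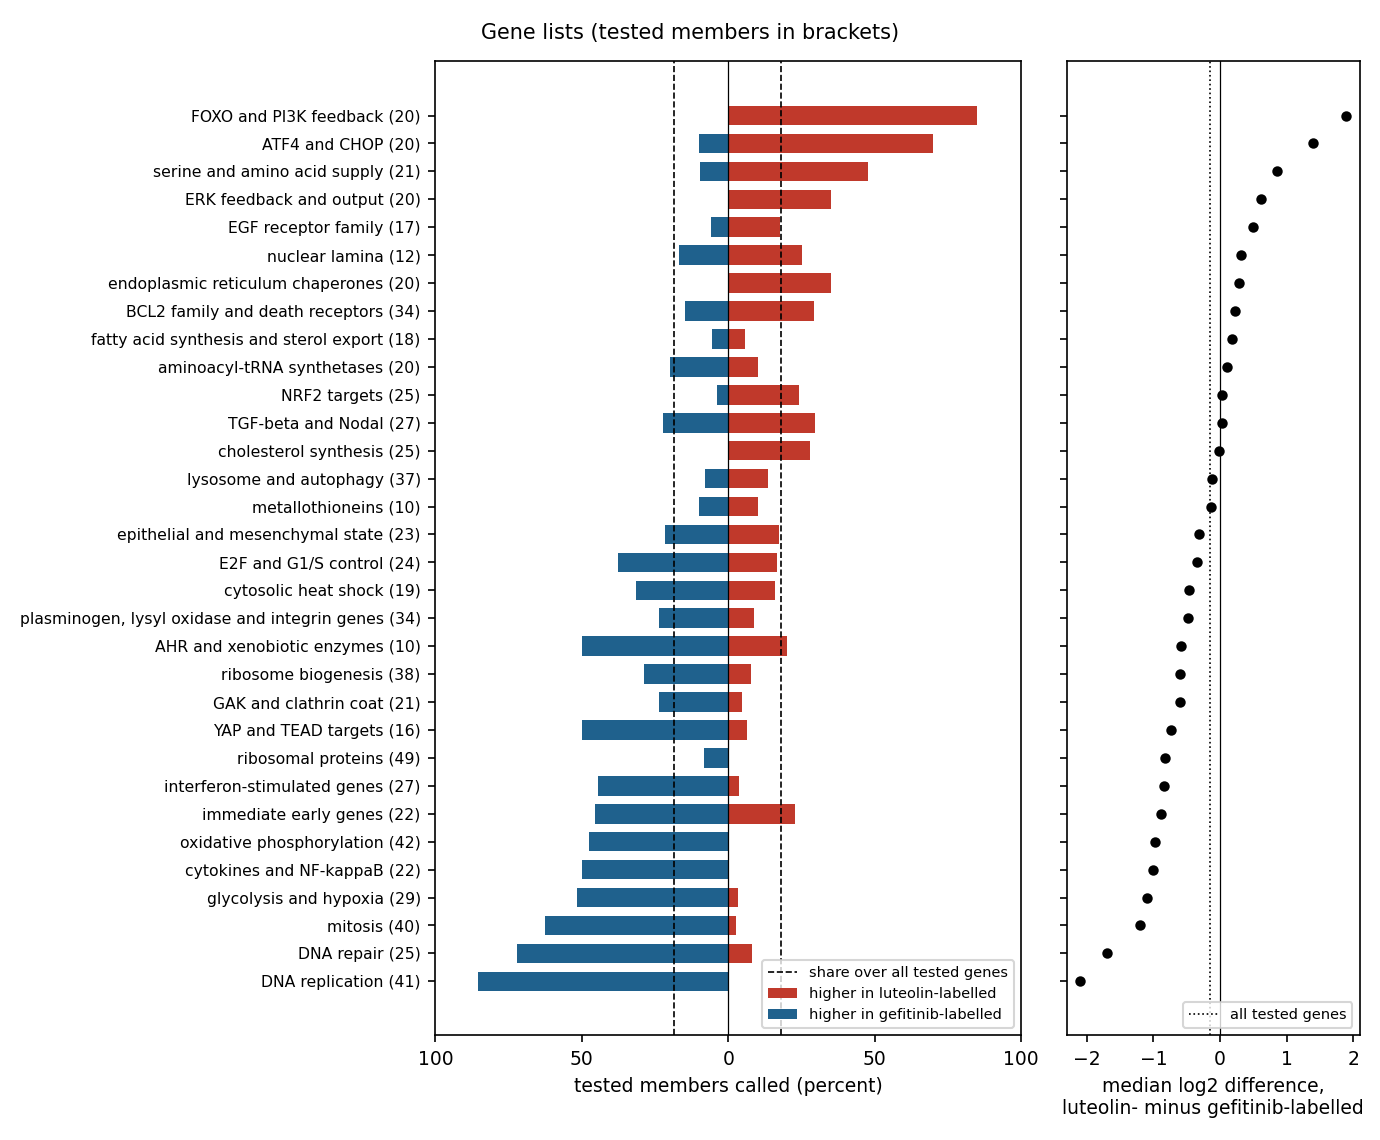
Percent of tested members of each gene list called higher in the luteolin-labelled (red, right) or gefitinib-labelled arrays (blue, left), with dashed lines at the shares over all tested genes (18.1% and 18.5%), and at right the median log2 difference of each list, with a dotted line at the median of all genes (-0.15). The lists run from FOXO and PI3K feedback, with a median of 1.9, to DNA replication, with -2.1.

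Genes of cell death were called in both directions. Of 34 BCL2 family, caspase and death receptor genes, 10 (29.4%) were higher in the luteolin-labelled arrays and 5 (14.7%) in the gefitinib-labelled arrays. The shares over all genes were 18.1% and 18.5%, the latter near that of the list, and the median of the list was 0.22. Over the scalings the counts ran from 6 to 11 on the luteolin side and from 2 to 5 on the gefitinib side. FADD, the adaptor of death receptors, measured 3.68 and 3.50 against 0.67 and 0.17, with a DMSO mean of 4.06 (difference 3.17 ± 0.22, adjusted p = 4.99e-05). The gefitinib-labelled arrays lay further from DMSO than the luteolin-labelled arrays. BMF, a BH3-only killer protein, measured -1.44 and -0.74 against -4.07 and -5.36, and was well above background on 1 of the 2 gefitinib-labelled arrays. BCL2L11, the gene of BIM and a FOXO target, chosen after its values were seen, measured 0.36 and 0.58 against -1.82 and -2.11, although the median over its probes differed by 0.61. On the gefitinib side stood BID, the link from caspase 8 to mitochondria, at 0.62 and 0.83 against 2.94 and 2.96, and BCL2, the survival protein, at 0.84 and 0.58 against 1.82 and 2.51. Without luteolin replicate 1, 3 genes of the list were on that side in place of 5. For CASP8, 2 of 3 probes pointed the other way from the one used, and for BBC3 1 of 3.

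In the list of TGF-beta and Nodal signaling, 8 of 27 genes (29.6%) were higher in the luteolin-labelled arrays and 6 (22.2%) in the gefitinib-labelled arrays. The shares over all genes were 18.1% and 18.5%. The list's median of 0.03 lay between -0.05 and 0.23 over the scalings. BMP4, a secreted ligand, was at least 6.85-fold higher in the luteolin-labelled arrays, at -2.05 and -2.50, near the DMSO mean of -2.59. ID1, a target of that ligand, measured 5.65 and 4.94 against 3.24 and 2.08, with a DMSO mean of 5.35. SMAD3, the signal carrier of TGF-beta, and INHBB, an activin subunit, were higher in the gefitinib-labelled arrays, by 6.79-fold and 5.34-fold. LEFTY1, the Nodal antagonist that the study followed, measured -4.46 and -3.17 against -2.08 and -3.75, so its groups overlapped (difference -0.90 ± 0.55, adjusted p = 0.188), with lower values at 0 h, of -5.98 and -6.46, and with DMSO, of -6.57 and -6.77. The arrays labelled with both drugs, whose files carry the mark of luteolin, were the highest of the series, at -0.09 and 0.26, so which treatment raised LEFTY1 most depends on whether the labels or the file names are followed. Without gefitinib replicate 2 it was called, at -1.74 (adjusted p = 0.0214). LEFTY2, its neighbor, and NODAL were not well above background on any of the 10 arrays.

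GAK, the cyclin G-associated kinase that the study centers on and that uncoats clathrin vesicles, did not pass the test, at 0.85 and 0.88 in the luteolin-labelled arrays and 0.86 and 0.59 in the gefitinib-labelled arrays (difference 0.14 ± 0.17, adjusted p = 0.52). Of 21 genes of its family and of the clathrin coat, 5 (23.8%) were higher in the gefitinib-labelled arrays and 1 (4.76%) in the luteolin-labelled arrays. The shares over all genes were 18.5% and 18.1%. CLTB, a clathrin light chain, measured 1.29 and 1.18 against 3.08 and 2.71, AP2M1, a subunit of the adaptor AP-2, 2.35 and 2.16 against 3.71 and 3.40 (-0.87 with quantile normalization, under the minimum fold), and BMP2K, a kinase of the GAK family, stood on the luteolin side at 1.01 ± 0.24, a call lost without luteolin replicate 2 (0.73) or gefitinib replicate 1 (0.81), and with the median over its probes (0.22). For AAK1, another kinase of the family, 1 of 3 probes pointed the other way.

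Inflammatory genes were higher in the gefitinib-labelled arrays. Of 22 cytokine and NF-kappaB genes, 11 (50%) were higher there and 0 in the luteolin-labelled arrays, against 18.5% and 18.1% of all genes. The median was -1.0. The list was above DMSO in both groups, by 0.59 and 0.81 in the luteolin-labelled arrays and 1.57 and 1.10 in the gefitinib-labelled arrays. CCL20, a chemokine for dendritic cells, measured -1.13 and -2.88 in the gefitinib-labelled arrays, at least 10.2-fold above luteolin-labelled arrays that were not well above background. CSF2, the growth factor GM-CSF, measured -4.69 and -5.95 against -1.63 and -3.10, with 1 of 2 luteolin-labelled arrays well above background. Without gefitinib replicate 1, 7 members were higher in place of 11 in the gefitinib-labelled arrays. Of 27 interferon-stimulated genes, 12 (44.4%) were higher in the gefitinib-labelled arrays. In the luteolin-labelled arrays 1 (3.7%) was higher, the exonuclease ISG20, by 1.69 ± 0.20. BST2, the tetherin that holds virus at the membrane, measured -0.34 and -0.07 against 2.57 and 2.13, and MX2, a GTPase of antiviral defense, -1.34 and -1.79 against 0.76 and 0.95. The interferon list stood -0.83 and -1.01 from DMSO in the luteolin-labelled arrays and 0.04 and 0.15 from it in the gefitinib-labelled arrays.

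Energy metabolism also leaned to the gefitinib-labelled arrays, though here the scaling mattered. Of 29 glycolysis and hypoxia genes, 15 (51.7%) were higher in the gefitinib-labelled arrays and 1 (3.45%) in the luteolin-labelled arrays. The shares over all genes were 18.5% and 18.1%, and with quantile normalization the count of 15 fell to 6. ADM, the hypoxia-induced hormone adrenomedullin, measured -0.49 and -0.04 against 3.22 and 2.67, with a DMSO mean of 0.11. PDK1, the kinase that closes pyruvate dehydrogenase, measured -1.52 and -1.42 against 1.02 and 0.49, and ANKRD37, a small hypoxia target, was the 1 on the luteolin side, by 2.12 ± 0.30. Of 42 oxidative phosphorylation genes, 20 (47.6%) were higher in the gefitinib-labelled arrays and 0 in the luteolin-labelled arrays, but quantile normalization left 1 and moved the median from -0.98 to -0.27. NDUFB8 and NDUFA10, subunits of complex I, had the largest differences, -1.61 ± 0.25 and -1.55 ± 0.24. Of 49 ribosomal protein genes, all 49 had both gefitinib-labelled arrays above both luteolin-labelled arrays (45.1% of all genes did). Yet 4 (8.16%, against 18.5% of all genes) were called, led by RPL22 and RPL35. Quantile normalization left 0 calls and a median of -0.02 in place of -0.83. Without gefitinib replicate 2 the count was 15. These are among the brightest genes on the array, the range in which the gefitinib-labelled arrays were higher most often, and the part of brightness in the result was not tested.

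Factors that build ribosomes lay below DMSO in the luteolin-labelled arrays in all but 1 of 38 genes, with list medians of -0.69 and -0.72, and near DMSO in the gefitinib-labelled arrays, with -0.04 and -0.12. Between the labels, 11 (28.9%) were higher in the gefitinib-labelled arrays and 3 (7.89%) in the luteolin-labelled arrays, against 18.5% and 18.1% of all genes. The median was -0.60. BOP1, a factor of the large subunit, measured 0.82 and 0.86 against 3.19 and 2.95, and UTP4, of the small subunit, 1.07 and 0.96 against 2.59 and 2.46. PPAN, another large subunit factor, and POLR1C, a subunit of RNA polymerases I and III, were higher in the luteolin-labelled arrays, by 1.85 ± 0.16 and 1.33 ± 0.15, and lay below their DMSO means of 0.74 and 1.07 in both groups. The count of 3 was 5 without gefitinib replicate 2. Lysosome and autophagy genes had 5 of 37 (13.5%) higher in the luteolin-labelled arrays and 3 (8.11%) in the gefitinib-labelled arrays. Both lay below the shares over all genes, 18.1% and 18.5%. The list's median of -0.12 reached 0.26 under another scaling. WIPI1, which binds the membrane of forming autophagosomes, measured 3.73 and 4.23 against 0.05 and 0.35, with DMSO at 1.30 and 1.52, so both luteolin-labelled arrays were above DMSO and both gefitinib-labelled arrays below it (13.7-fold, adjusted p = 4.41e-05). ATG12, a conjugation protein of autophagy, was 3.02-fold higher in the gefitinib-labelled arrays. Of the proton pump subunits, ATP6V0D2 was at least 1.09-fold higher in the luteolin-labelled arrays, and ATP6V0A1 stood on the gefitinib side by -1.64 ± 0.54, with 1 luteolin-labelled array well above background. Neither call held without luteolin replicate 2 or gefitinib replicate 2, and with normexp ATP6V0D2 lay at -0.07.

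**Figure D5:**
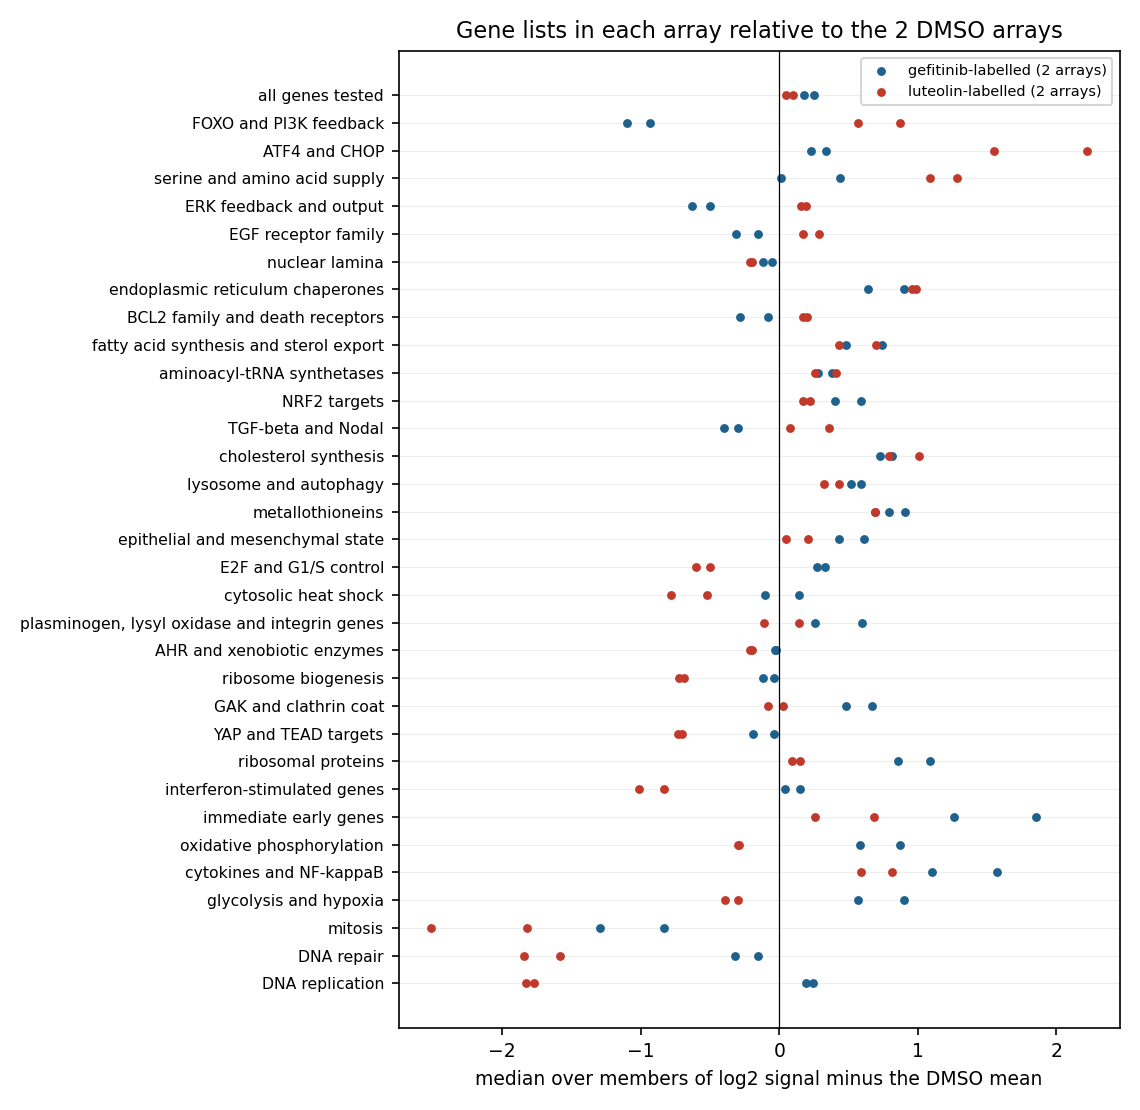
Median over the members of each gene list of the log2 signal minus the mean of the 2 DMSO arrays (x axis), one point per luteolin-labelled (red) and gefitinib-labelled (blue) array, with the line at the DMSO level. DNA replication lies at -1.77 and -1.83 in the luteolin-labelled arrays and at 0.19 and 0.24 in the gefitinib-labelled arrays, and FOXO and PI3K feedback lies on opposite sides of DMSO. All genes tested lie at 0.10 and 0.05 in the luteolin-labelled arrays and at 0.25 and 0.18 in the gefitinib-labelled arrays.

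Genes of cell shape and surface gave smaller groups. Of 23 epithelial and mesenchymal genes, 5 (21.7%) were higher in the gefitinib-labelled arrays and 4 (17.4%) in the luteolin-labelled arrays, near the shares over all genes of 18.5% and 18.1%. KRT7, a simple epithelial keratin, measured -0.36 and -0.60 against 3.18 and 3.07, with DMSO at 1.27 and 1.49 between them (12.2-fold, adjusted p = 2.64e-05), and AXL, a receptor kinase, 2.52 and 2.11 against 4.33 and 4.05. The tight junction genes CLDN4 and CLDN3 went the other way, by 2.78 ± 0.38 and 1.63 ± 0.32, the latter 0.93 with the median over its probes. Of 34 plasminogen, lysyl oxidase and integrin genes, 8 (23.5%) were higher in the gefitinib-labelled arrays, near the 18.5% of all genes. In the luteolin-labelled arrays 3 (8.82%) were higher, against 18.1% of all genes. MMP7, matrilysin, was well above background on 1 of 2 luteolin-labelled arrays, with a difference of -2.44 ± 0.47. LOX, a collagen crosslinker, was at least 3.34-fold higher in the luteolin-labelled arrays, though with normexp it differed by 0.42, under the minimum fold. ITGB8, an integrin that frees TGF-beta, was 3.50-fold higher. Of 16 YAP and TEAD targets, 8 (50%, against 18.5% of all genes) were higher in the gefitinib-labelled arrays, ANKRD1 by at least 1.63-fold with 1 gefitinib-labelled array well above background. The 1 on the luteolin side (6.25%, against 18.1% of all genes) was LATS2, the kinase that inactivates YAP, by 1.11 ± 0.28. Without gefitinib replicate 1 the count of 8 was 3, and LATS2 fell under the minimum fold without luteolin replicate 2 (0.91).

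The largest differences on the luteolin side, among genes well above background on all 4 arrays, belonged to several pathways. PPARA, a nuclear receptor of fatty acid oxidation, led them, at -0.50 and -0.02 against -4.75 and -4.87, with DMSO at -2.86 and -2.77 (difference 4.55 ± 0.30, 23.4-fold, adjusted p = 4.41e-05). Its probe lies at chr22:45015820-45015879 on the plus strand of hg18. PPP1R10, a nuclear targeting subunit of protein phosphatase 1, measured 1.49 and 1.56 against -2.13 and -3.02, with DMSO at 1.30 and 1.22. The first gene was therefore split about DMSO, and the second left the DMSO level mainly in the gefitinib-labelled arrays.

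FZD8, a Wnt receptor, followed the pattern of PPP1R10, at 3.34 and 3.24 against -0.83 and -0.64 with DMSO at 2.96 and 3.03. FZD7, another Wnt receptor, was at least 7.09-fold higher in the luteolin-labelled arrays, and FRAT2, which protects beta-catenin from its kinase, measured 1.29 and 1.65 against -2.01 and -2.44. These 3 genes were named for large differences on the luteolin side, so their lower values in the gefitinib-labelled arrays follow from that choice. Wnt genes as a set were not examined. TP53INP1, a stress protein of autophagy and cell death, measured 0.71 and 0.83 against -3.19 and -3.28 with DMSO at -1.87 and -1.68, and NNMT, which methylates nicotinamide, 2.15 and 1.84 against -1.96 and -2.02. The remaining members were SLITRK6, a neuronal membrane protein, PNRC1, a nuclear receptor coactivator, PTGER4, a prostaglandin E2 receptor, and ZNF671, a zinc finger protein, with differences of 3.89, 3.89, 3.78 and 3.65. SEMA6D, a semaphorin, and OTX1, a homeobox factor, were at least 24.1-fold and 11.4-fold higher in the luteolin-labelled arrays, since neither was well above background on the gefitinib-labelled arrays.

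The largest differences on the gefitinib side, besides those given above, often had low DMSO values. KCTD4, a protein with a tetramerization domain, measured 0.09 and 0.02 in the gefitinib-labelled arrays and was not well above background in the luteolin-labelled arrays, a difference of at least 48.1-fold. PTAFR, the receptor of platelet-activating factor, was at least 29.3-fold higher, WFIKKN2, a secreted protease inhibitor that binds myostatin, at least 13.7-fold, and GAL3ST1, a sulfotransferase of lipids, at least 11.3-fold. For all 4 genes the DMSO values were -5.96 or lower, as low as the luteolin-labelled ones. FGF18, a fibroblast growth factor, measured -4.53 and -3.20 against 0.29 and -0.40, with DMSO at -5.08 and -5.73. LDHC, the lactate dehydrogenase of sperm, measured -4.39 and -4.68 against -0.89 and -0.85, and SPMAP1, a sperm protein, -5.14 and -4.91 against -1.09 and -1.45. FAM209A, also known from testis, measured -3.06 and -2.57 against 1.24 and 0.44, with DMSO at -3.08 and -3.33. WDR76, a WD repeat protein, and DHRS2, a short-chain dehydrogenase, had DMSO values beside the gefitinib-labelled arrays instead, at -2.11 and -1.83 and at -0.45 and -0.34, and the luteolin-labelled arrays lay 12.3-fold and 12.4-fold below the gefitinib-labelled arrays.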

How the data were processed

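The mRNA of PC-3 cells was measured on 10 single-color Agilent arrays. The values the authors deposited are intensities, the linear processed signal of Agilent Feature Extraction (10.7.3.1 per the file headers), background-subtracted and detrended within the array and not normalized between arrays. The deposited table of the series held the same signal on all 45015 spots, with 0 per-sample columns unused.

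Groups were taken from the labels. The analysis ran in R 4.3.3 with limma 3.58.1 and the data.table package, version 1.17.8. Control spots and outlier spots were left out, spots of a probe were averaged as log2 signal, and each array was scaled to its 75th percentile. A probe was kept if at least 1 group had it well above background on each of its arrays (28774 of 41000), and the brightest probe stood for a gene, which left 19717 of 28090 named genes. Accessions of 23958 probes matched RefSeq and took its symbols, and the others kept the scanner file's name. A limma model with 5 groups was fitted to all 10 arrays (5 residual and 3.36 prior degrees of freedom), and p-values were adjusted over all kept probes by Benjamini-Hochberg. A call needed an adjusted p under 0.05 and a log2 difference of at least 1. For the at-least folds, a group not well above background took that array's lowest detected signal where its own was lower. In 3 tested genes, 1 of them called, a value was missing on one of the 4 arrays.

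Named genes were the largest differences in each direction that matched RefSeq, up to 2 called members per list and direction, and genes that the study follows, of which some are not reported here. The members and the gene lists were chosen with earlier results of these data known. Promoters came from the RefSeq table (GRCh38.p14), 250 bases before each start. Probe positions are on hg18. The fit was tested on simulated data. Alternatives were quantile normalization, normexp background correction (offset 50), another centring, other filters, the value table, replicate number or slide as a block, only the 4 arrays, the treatments of the file names, other fold thresholds, the median over probes, the test of the study's methods and leaving out each array.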

Additional observations from a re-analysis of the deposited data

How the results depend on the processing

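With 2 arrays per group, the number of arrays limits the precision, and the luteolin-labelled arrays differed in signal over background (68.9% and 63.7% of probes well above it). The counts of 3574 genes higher in the luteolin-labelled arrays and 3640 higher in the gefitinib-labelled arrays were 1876 and 2802 with normexp background correction, 3741 and 2888 with quantile normalization, 3277 and 4194 with the other centring, 5361 and 6548 with no minimum fold, and 1082 and 610 at 4-fold. The methods' one-sample test, run on the log2 ratios of the luteolin-labelled arrays to the mean of the gefitinib-labelled arrays with at least 2-fold, called 2202 and 1953 genes unadjusted and 0 and 0 after Benjamini-Hochberg adjustment, where limma called 3574 and 3640. Leaving out each array in turn gave 3401 to 3687 and 3036 to 3773 genes, where the spread of a lone array was taken from the remaining groups. Replicate numbers are shared by the groups in the labels only, the deviations of arrays of one number correlated at 0.056, and the replicate block gave 3586 and 3641 genes. The slide as a block gave 3461 and 3520. Of the 135 genes named with a value, normexp left 119 on the same side of the threshold and in the same direction, quantile normalization 126, and the replicate block 135. ATP6V0D2 turned to -0.07 with normexp, PCNA to 0.03 with quantile normalization, FEN1 to -0.01 with the other centring and to -0.06 with the median over probes, and over the arrays left out FEN1 ranged from -0.08 to 0.21 and GAK from -0.00 to 0.27. The cause of these changes was not tested.

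With the treatments of the scanner file names, the arrays labelled luteolin take the place of gefitinib and the arrays labelled with both drugs take the place of luteolin, so the comparison is one of other arrays by construction. The luteolin-labelled arrays enter both comparisons, with opposite sign. Most genes were named for differences that include those arrays. Reversed directions are therefore favored in advance, and their number is no separate evidence on the labels or the drugs. It gave 2223 genes higher in the arrays that their files mark as luteolin and 1924 higher in those marked as gefitinib, and 2096 genes called in both ways had opposite directions. Of the 135 genes named with a value, 116 reversed, 15 lost their call in the same direction and 2 stayed the same. Another 2 gained a call in limma, EGFR at -1.19 (adjusted p = 0.00419) and FEN1 at 2.49 (adjusted p = 0.000168). The log2 difference of luteolin minus gefitinib by file name became negative for the following genes, whose difference between the labels was positive. It was -4.07 for ERBB4, -3.46 for NNMT, -3.27 for WIPI1, -3.09 for DDIT3, -2.80 for ATP6V0D2, -2.77 for TRIB3, -2.61 for PPARA, -2.56 for SLC7A11, -2.45 for SLITRK6, -2.42 for SLC1A5, -2.29 for AARS1, -2.23 for ISG20, -2.22 for BMF, -2.11 for SEMA6D, -2.03 for MT1F, -2.02 for ITGB8, -1.72 for CDC25B, -1.66 for CLDN3, -1.64 for LOX and -1.63 for FZD8. Values were -1.61 for FRAT2, -1.57 for AKR1C1, -1.54 for GCLC, -1.49 for FZD7, -1.46 for TP53INP1, -1.40 for CHAC1, -1.29 for HERPUD1, -1.21 for LRIG3, -1.21 for ASNS, -1.14 for CDKN2B, -1.09 for SQLE, -1.05 for BCL6, -0.98 for PPP1R10, -0.90 for GARS1, -0.90 for DNAJB9, -0.83 for PNRC1, -0.81 for KLF4, -0.74 for DUSP6, -0.72 for SPRY1 and -0.70 for HSPA1L. It was -0.70 for CLDN4, -0.68 for FOXO1, -0.62 for ZNF671, -0.48 for BMP2K, -0.44 for ATF4, -0.37 for SESN1, -0.36 for ARNT, -0.34 for BMP4, -0.27 for ANKRD37, -0.15 for GAK, -0.12 for PTGER4 and -0.05 for BCL2L11. It became positive for the following, whose difference between the labels was negative. It was 0.15 for PPP1R15A, 0.16 for CYP1B1, 0.19 for SHMT1, 0.44 for ACACA, 0.49 for TMPO, 0.50 for MT3, 0.58 for CRYAB, 0.58 for CLTB, 0.72 for ATF3, 0.73 for PCNA, 0.80 for AP2M1, 0.84 for LMNB2, 0.85 for TXN, 0.85 for NDUFA10, 0.90 for UTP4, 0.95 for FARSB, 0.98 for ATP6V0A1, 1.0 for BCL2, 1.02 for RPL22 and 1.02 for RPL35. Values were 1.05 for NDUFB8, 1.10 for MTHFD1, 1.14 for HSP90AA1, 1.22 for ALDH3A1, 1.31 for AXL, 1.38 for BOP1, 1.44 for MX2, 1.49 for AURKB, 1.49 for INHBB, 1.54 for FGF18, 1.57 for BID, 1.76 for CDK1, 1.79 for ATG12, 1.83 for E2F1, 1.86 for ANKRD1, 1.93 for MMP7, 1.94 for KRT7, 1.97 for PDK1, 2.0 for BST2 and 2.01 for BIRC5. It was 2.24 for ARC, 2.30 for LDHC, 2.37 for WDR76, 2.46 for RAD54L, 2.48 for BRIP1, 2.58 for AOX1, 2.58 for SMAD3, 2.77 for DHRS2, 2.84 for GINS2, 3.02 for ADM, 3.35 for RRM2, 3.36 for EGR1, 3.38 for FOS, 3.40 for UHRF1, 3.54 for CCL20, 3.59 for E2F8, 3.62 for SPMAP1, 3.90 for LEFTY1, 4.28 for KCTD4 and 4.31 for CSF2. Values were 4.80 for FAM209A, 4.91 for PTAFR, 5.01 for GAL3ST1 and 5.41 for WFIKKN2.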
